A study of Mus musculus with 16 samples.

Results

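The genes described here are 9 receptors of the low-density lipoprotein receptor family and its relatives, several of which bind apolipoprotein E (apoE): *Lrp1*, *Lrp1b*, *Lrp2*, *Lrp4*, *Lrp5*, *Lrp6*, *Lrp8*, *Vldlr* and *Sorl1*. They were picked by symbol, and all 9 were found among the 48397 symbols counted in each library and among the 17038 genes with enough counts to be tested. RNA came from primary hippocampal neurons of newborn CD1 mice (P0 to P2), wild type in every group, which received cytosine arabinoside at 3 days in vitro (DIV) against dividing cells. At 10 and 13 DIV the neurons received 10-fold concentrated medium conditioned by immortalized astrocytes. These astrocytes were homozygous for the human *APOE* allele ε2, ε3 or ε4 (the apoE2, apoE3 and apoE4 groups) or carried no *Apoe* (*Apoe*-/-, the control neurons). RNA was taken at 17 DIV from 4 libraries a group, 16 in all. The medium of each group comes from astrocytes of its own genotype, with concentrated *Apoe*-/- medium added where needed to even out the apoE level. An apoE isoform therefore cannot be told apart from any other property of the astrocytes that secreted it.

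Receptors of this family carry clusters of ligand-binding repeats outside the cell and short sorting motifs inside it, and they take up lipoproteins, proteases bound to inhibitors and other cargo through coated pits. ApoE, which astrocytes secrete on lipid particles, delivers cholesterol to neurons through several of them. Other members act mainly in signaling: *Lrp8* (apoE receptor 2) and *Vldlr* pass the reelin signal to the adaptor Dab1, *Lrp5* and *Lrp6* are Wnt co-receptors, and *Lrp4* is the agrin receptor of the neuromuscular junction. *Sorl1* encodes a sorting receptor that joins the lipoprotein receptor repeats to a VPS10 domain and works with the retromer.

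Gene counts per library ran from 14087723 to 34248172, with a median of 22221832, and are given as CPM, counts scaled to a common library size. Libraries of the same replicate number resembled each other across groups, those of number 1 the least. Their deviations from the group means correlated at 0.362 to 0.552, while libraries of different numbers reached 0.569. Each comparison is therefore given from 2 fits of edgeR, one with the 4 groups alone, which is the reported test, and one with the replicate number as a block. The limit for a call is an adjusted p of 0.05, adjusted over the 17038 genes. The comparisons with control share the 4 control libraries and are not independent of each other. All 8 neuron markers listed were detected in every library and summed to 2880 to 7280 CPM. The 8 astrocyte markers summed to 1300 to 6490 CPM and exceeded the neuron sum in 3 libraries, replicates 1 and 4 of apoE3 and replicate 4 of apoE4. In RNA from whole cultures, fewer cells of a type and less RNA per cell cannot be told apart. The paper also counted astrocytes stained for GFAP at the end of culture. It reports that they were a small share of all cells, with no significant difference between treatments. Those counts are from wells plated for staining, not from the wells that gave RNA, so the astrocyte number behind each library is not known.

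Levels between genes were compared per kilobase of exons (CPM per kb). *Sorl1* averaged 25.3 ± 11.9 CPM per kb (SD, n = 16) and *Lrp1*, a large endocytic receptor that clears apoE remnants, 24.0 ± 5.82. These top genes did not separate, since *Sorl1* was the higher in 8 of 16 libraries. *Vldlr* followed at 15.8 ± 1.96, below *Lrp1* in 16 of 16 libraries, and *Lrp8* at 10.8 ± 2.98, below *Vldlr* in 13 of 16. *Lrp6* stood at 5.31 ± 0.801, below *Lrp8* in every library and with no overlap of their ranges, and *Lrp1b* at 4.15 ± 1.20. The lowest were *Lrp5* at 1.46 ± 0.808, *Lrp4* at 1.45 ± 0.728 and *Lrp2* at 0.752 ± 0.580. *Lrp5* and *Lrp4* could not be ordered, with *Lrp5* higher in 7 of 16 libraries, while *Lrp2* lay below *Lrp4* in all 16.

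**Figure D1:**
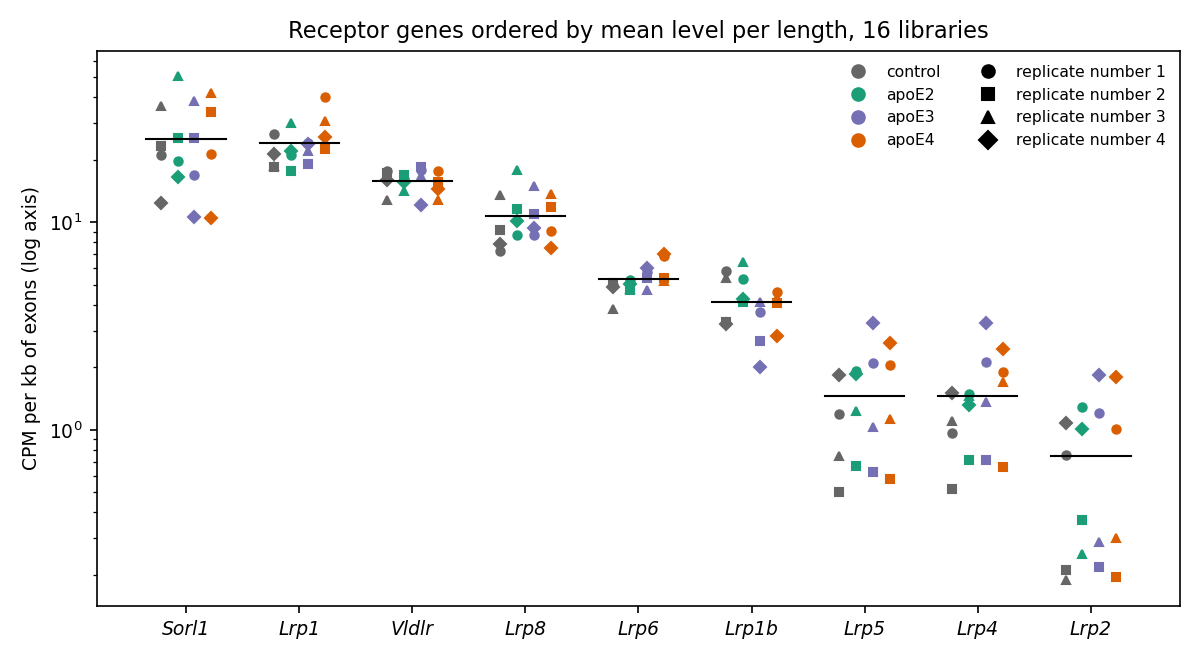
Level of each receptor gene per kilobase of exons (CPM per kb, log axis) in the 16 libraries, with the group as color, the replicate number as symbol and the mean as a line. The order runs from *Sorl1* at a mean of 25.3 to *Lrp2* at 0.752, and the points of *Sorl1*, *Lrp5*, *Lrp4* and *Lrp2* spread the most.

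No receptor passed the reported test in any comparison. In edgeR without the block 0 of the 9 were called with apoE2, apoE3 or apoE4 against control, where 0%, 0.00587% and 0.194% of all genes were called. Between isoforms, 0 of 9 were called for apoE3 against apoE2, apoE4 against apoE2 and apoE4 against apoE3, against 0%, 0.252% and 0.147% of all genes. DESeq2 without the block also called 0 of 9 in all 6 comparisons, while it called 0.217%, 0.352% and 0.534% of all genes with apoE2, apoE3 and apoE4 and 0.0529%, 0.988% and 0.405% in the comparisons between isoforms. At an unadjusted p under 0.05 edgeR had 0, 0 and 2 receptors with apoE2, apoE3 and apoE4, where 2.79%, 6.43% and 3.3% of all genes passed. The 2 with apoE4 were *Lrp6* and *Lrp1*. At the same limit it had 1, 1 and 0 receptors between isoforms (*Lrp1b* for apoE3 against apoE2, *Lrp6* for apoE4 against apoE2), beside 2.28%, 5.34% and 4.7% of all genes. The study's criterion of a 2-fold change at an unadjusted p under 0.05 was met by 0 of 9 receptors with each isoform, and by 0.722%, 1.96% and 1.15% of all genes.

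With the replicate number as a block, 3 receptors were called with apoE3 (*Lrp1b* lower, *Lrp4* and *Lrp5* higher) and 1 with apoE4 (*Lrp6* higher), where 11.7% and 3.3% of all genes were called. With apoE2 the count was 0 against 1.73% of all genes. There 3 receptors had an unadjusted p under 0.05 (13.3% of all genes), and DESeq2 with the block called 1, *Lrp8* (4.61% of all genes). The 9 receptors had a median log2 fold change of 0.24 with apoE2, 0.22 with apoE3 and 0.38 with apoE4 in the blocked fit, against medians over all genes of 0.014, 0.015 and -0.0017. Called changes of the receptors stayed between -0.51 and 0.78 on the log2 scale against control.

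**Figure D2:**
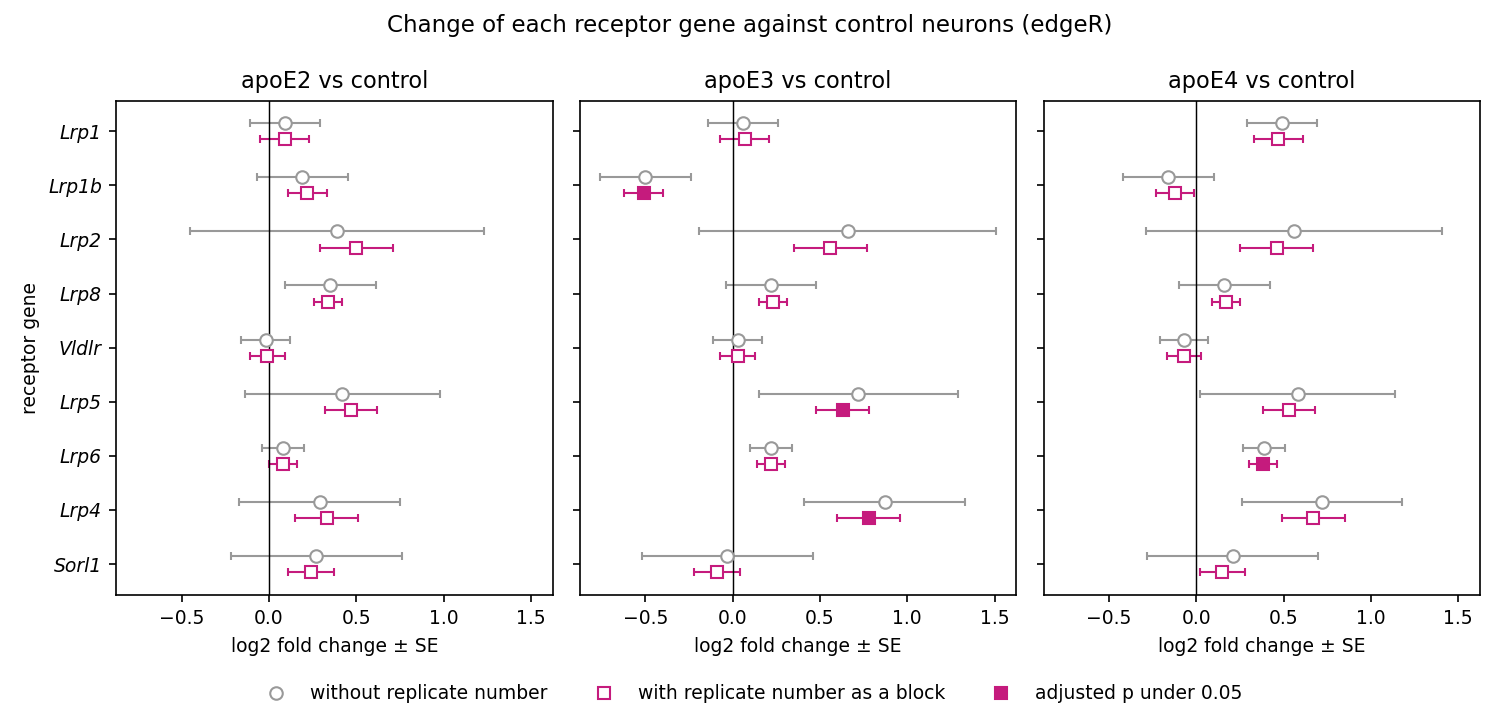
Log2 fold change of each receptor gene against control neurons with its standard error, from edgeR without (gray circles) and with (magenta squares) the replicate number as a block, in 3 panels for apoE2, apoE3 and apoE4. Filled squares, called at an adjusted p under 0.05, are *Lrp1b* at -0.51, *Lrp5* at 0.63 and *Lrp4* at 0.78 with apoE3 and *Lrp6* at 0.38 with apoE4; no gray circle is filled.

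*Lrp1* (chr10:127538161-127621148, minus strand, GRCm38, GENCODE M21, as for the positions that follow) was the most strongly counted of the endocytic receptors. It had 475, 327, 329.9 and 376 CPM in control replicates 1 to 4, 374, 312, 536 and 389 with apoE2, 427, 337, 389 and 423 with apoE3 and 711, 398, 545 and 458 with apoE4. Each apoE4 library was above the control library of its number, but the groups overlapped through apoE4 replicates 2 and 4 and control replicate 1. *Lrp1* averaged 528 ± 136 CPM (SD, n = 4) with apoE4 and 377 ± 69.0 in control neurons, a log2 fold change of 0.49 ± 0.20 (SE) with an unadjusted p of 0.0273 and an adjusted p of 1.0 by edgeR. With the block it was 0.47 ± 0.14 at an edgeR adjusted p of 0.0790. That value was called in blocked fits without apoE2 replicate 1 (0.47, 0.0407) or 3 (0.47, 0.0328), which enter through the shared spread, in the blocked fit of the 2 groups alone (0.46, 0.0204) and by DESeq2 with the block (0.46, adjusted p = 0.0382). *Lrp1* was not called with apoE4 in the other blocked fits that left out 1 library or the libraries of 1 number. Nor was it called with the block and an offset for exon length. The other isoforms left it close to control, at log2 fold changes of 0.09 ± 0.20 with apoE2 and 0.06 ± 0.20 with apoE3.

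*Lrp1b* (chr2:40595246-42653624, minus strand), a slower relative of *Lrp1* at the cell surface, was the one receptor called lower. It had 139, 78.5, 128 and 76.7 CPM in control replicates 1 to 4, 127, 97.9, 154 and 101.4 with apoE2, 87.4, 63.8, 98.5 and 47.6 with apoE3 and 110.3, 97.4, 103 and 67.5 with apoE4. Every apoE3 library was below the control and the apoE2 library of its number, although the groups overlapped. With apoE3 it averaged 74.4 ± 23.0 CPM against 105 ± 32.4 in control neurons. The log2 fold change was -0.50 ± 0.26 (edgeR adjusted p = 0.788), and -0.51 ± 0.11 with the block (edgeR adjusted p = 0.0103). In the blocked fit this call held in 15 of 16 fits that left out 1 library and was lost without control replicate 1 (-0.43, edgeR adjusted p = 0.0614). Without all 4 libraries of number 1 it was -0.44 at an edgeR adjusted p of 0.0966. *Lrp1b* was also 0.22 ± 0.11 above control with apoE2 and -0.12 ± 0.11 from it with apoE4 on the log2 scale with the block, neither of them called. *Gm27348* overlaps 0.416% of its exons on the same strand.

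*Lrp2* (chr2:69424340-69586065, minus strand) encodes megalin, an endocytic receptor known from absorptive epithelia. Replicates 1 to 4 had 12.7, 3.54, 3.14 and 18.0 CPM in control neurons, 21.6, 6.15, 4.21 and 16.9 with apoE2, 20.2, 3.65, 4.84 and 30.7 with apoE3 and 16.8, 3.28, 5.04 and 30.1 with apoE4. Replicates 1 and 4 were high and replicates 2 and 3 low in all 4 groups, with 12.7 CPM as the lowest of the former and 6.15 as the highest of the latter. Against this spread the log2 fold changes of 0.39 ± 0.84, 0.66 ± 0.85 and 0.56 ± 0.85 with apoE2, apoE3 and apoE4 were not called (edgeR adjusted p = 1.0, 0.857 and 1.0), nor were the blocked values of 0.50, 0.56 and 0.46, each with a standard error of 0.21 (edgeR adjusted p = 0.313, 0.0994 and 0.291). In the blocked fit without apoE2 replicate 4, *Lrp2* was called with apoE2 (0.75, edgeR adjusted p = 0.0220) and with apoE3 (0.55, edgeR adjusted p = 0.0272), the latter also without the 4 libraries of number 2 (0.67, 0.0418) and in the 2 groups alone (0.55, 0.0454). Neither value was called in the other blocked fits that left out 1 library or the libraries of 1 number.

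*Lrp2* and *Sorl1* had the largest shares of spread between replicate numbers and ran in opposite directions over them, and the sequences just before their annotated starts are given for that reason. They are from a set of RefSeq promoters on GRCm38.p6. The set used here had an entry for 5 of the 9 genes and none for *Lrp1b*, *Lrp4*, *Lrp5* and *Lrp6*. Both are on the minus strand, printed 5′ to 3′ as far as the first base before the gene, and capitals mark GGGCGG or its complement CCGCCC (a GC box) and CACGTG (an E-box). The *Lrp2* stretch has 214 bases, at chr2:69586066-69586279, with 36 bases nearest the RefSeq start left out because they lie inside the gene as GENCODE places it. The *Sorl1* stretch has 250 bases, at chr9:42124298-42124547.
Lrp2: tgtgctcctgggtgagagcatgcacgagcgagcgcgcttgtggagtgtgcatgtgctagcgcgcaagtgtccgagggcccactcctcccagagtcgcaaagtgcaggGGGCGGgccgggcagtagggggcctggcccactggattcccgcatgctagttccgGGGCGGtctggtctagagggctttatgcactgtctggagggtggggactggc
Sorl1: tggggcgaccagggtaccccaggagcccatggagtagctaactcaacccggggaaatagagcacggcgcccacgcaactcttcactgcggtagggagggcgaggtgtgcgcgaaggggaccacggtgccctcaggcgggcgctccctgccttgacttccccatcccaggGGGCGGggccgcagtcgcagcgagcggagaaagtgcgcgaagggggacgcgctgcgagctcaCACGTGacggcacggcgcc
*Lrp2* has 2 GC boxes and no E-box, and *Sorl1* has 1 of each. Over 32851 RefSeq promoters, 32.7% hold a GC box in either direction and 6.02% an E-box in the 250 bases before the start. GC content was 65.9% for *Lrp2* and 69.6% for *Sorl1*. These letters are a description of the sequence, and no binding was measured.

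Both reelin receptors differed with the replicate number, *Lrp8* by 1.78-fold between its highest and lowest number and *Vldlr* by 1.23-fold. *Lrp8* (chr4:107802261-107876840, plus strand) had 76.3, 96.4, 143 and 83.0 CPM in control replicates 1 to 4, 90.9, 122, 188 and 107 with apoE2, 91.7, 116, 157 and 98.8 with apoE3 and 95.4, 124.7, 144 and 79.4 with apoE4. Replicate 3 was the highest in each group, and each apoE2 and apoE3 library exceeded the control of its number. The groups overlapped. With apoE2 the mean was 127 ± 42.4 CPM against 99.6 ± 29.97, which is 0.35 ± 0.26 on the log2 scale (edgeR adjusted p = 1.0), or 0.34 ± 0.08 with the block (edgeR adjusted p = 0.0536), while DESeq2 with the block called it (0.33, adjusted p = 0.0143), as did the blocked edgeR fits without apoE4 replicate 2 (0.34, 0.0449) or 4 (0.34, 0.0322). The other blocked edgeR fits that left out 1 library or the libraries of 1 number did not call it. The blocked values with apoE3 and apoE4 were 0.23 ± 0.08 and 0.17 ± 0.08, neither of them called.

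*Vldlr* (chr19:27216484-27254231, plus strand) had the narrowest relative spread of the 9 (CV of 12.4% over 16 libraries), from 122 to 185 CPM. Its levels were 178, 173, 129 and 161 CPM in control replicates 1 to 4, 163, 170.5, 142 and 158 with apoE2, 179.8, 185, 169 and 122 with apoE3 and 177, 157, 129.5 and 146 with apoE4. No group stood out. The means of 160.3 ± 21.9, 158 ± 11.97, 164 ± 28.9 and 152.5 ± 19.96 CPM gave blocked log2 fold changes of -0.01, 0.03 and -0.07 with a standard error of 0.10, all with an edgeR adjusted p of 0.772 or above.

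The Wnt co-receptors *Lrp5* and *Lrp6* differed in how they varied. *Lrp6* (chr6:134446476-134566965, minus strand) was the 1 receptor of 9 whose apoE4 and control groups did not overlap, where 1.91% of all genes did not. It had 68.3, 69.7, 52.2 and 66.4 CPM in control replicates 1 to 4, 72.2, 64.5, 65.2 and 69.0 with apoE2, 78.8, 73.5, 64.9 and 82.2 with apoE3 and 93.7, 73.9, 71.6 and 96.0 with apoE4. The lowest apoE4 library, at 71.6 CPM, was above the highest control library, at 69.7. *Lrp6* averaged 83.8 ± 12.8 CPM with apoE4 against 64.1 ± 8.04, a log2 fold change of 0.39 ± 0.12 with an unadjusted p of 0.00608 and an adjusted p of 0.644 by edgeR. With the block it rose by 0.38 ± 0.08 (edgeR adjusted p = 0.0142). That call was kept in 11 of 16 blocked fits that left out 1 library, with edgeR adjusted p from 0.00621 to 0.0793, and was lost without control replicate 1, 3 or 4 or apoE4 replicate 1 or 4. It was also lost without all libraries of number 1, 3 or 4 (edgeR adjusted p = 0.166, 0.128 and 0.0839). The blocked values with apoE2 and apoE3 were 0.08 ± 0.08 and 0.22 ± 0.08 (edgeR adjusted p = 0.738 and 0.0805), and the second was called without control replicate 2 (0.30, 0.0284) and with an offset for exon length (0.26, 0.0323). With the block and that offset the apoE4 value was smaller, at 0.30 (edgeR adjusted p = 0.0364), and still called.

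*Lrp5* (chr19:3584828-3686564, minus strand) had 11.55, 4.91, 7.29 and 17.8 CPM in control replicates 1 to 4, 18.8, 6.53, 11.99 and 18.1 with apoE2, 20.4, 6.11, 10.1 and 31.8 with apoE3 and 20.0, 5.62, 11.02 and 25.5 with apoE4. Each of the 12 treated libraries was above the control library of its number, yet the spread between numbers was wider than between groups. With apoE3 the mean was 17.1 ± 11.5 CPM against 10.4 ± 5.66. The log2 fold change of 0.72 ± 0.57 had an edgeR adjusted p of 0.810 without the block, and 0.63 ± 0.15 an edgeR adjusted p of 0.0138 with it. With apoE4 and apoE2 the blocked values were 0.53 ± 0.15 and 0.47 ± 0.15 (edgeR adjusted p = 0.0640 and 0.135). Without apoE2 replicate 4 both were called (0.52, 0.0106 and 0.63, 0.00817 by edgeR), and the former also without apoE3 replicate 4 (0.53, 0.0391). The apoE4 value was called too in the blocked fit of the 2 groups alone (0.53, edgeR adjusted p = 0.0318) and by DESeq2 with the block (0.52, adjusted p = 0.0238), and without the libraries of number 4 both the apoE4 value (0.52, edgeR adjusted p = 0.0481) and the apoE2 value (0.61, 0.0221) were called. The other blocked fits that left out 1 library or the libraries of 1 number called neither of them. The apoE3 call was lost in blocked fits without control replicate 1 (0.55, edgeR adjusted p = 0.0725) or apoE3 replicate 4 (0.48, edgeR adjusted p = 0.0780), and without the libraries of number 1 (0.57, 0.136) or number 3 (0.68, 0.0503).

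*Lrp4* (chr2:91457511-91513779, plus strand) followed *Lrp5* closely. Its levels were 10.2, 5.43, 11.55 and 15.8 CPM in control replicates 1 to 4, 15.7, 7.49, 15.4 and 13.8 with apoE2, 22.3, 7.54, 14.4 and 34.2 with apoE3 and 20.0, 6.93, 17.9 and 25.8 with apoE4. Replicate 2 was the lowest in every group and replicate 4 of apoE3 the highest of all. The apoE3 mean was 19.6 ± 11.4 CPM against 10.7 ± 4.26 in control neurons, and each apoE3 library was above the control of its number. The log2 fold change was 0.87 ± 0.46 (edgeR adjusted p = 0.801), and 0.78 ± 0.18 with the block (edgeR adjusted p = 0.0130). Leaving out control replicate 1 (0.68, edgeR adjusted p = 0.0692), apoE3 replicate 1 (0.74, 0.0526) or apoE3 replicate 4 (0.59, 0.0712) ended the blocked call, as did leaving out the libraries of number 1 (0.68, 0.144). With apoE4 the blocked value was 0.67 ± 0.18 (edgeR adjusted p = 0.0593), and it was called without apoE2 replicate 4 (0.66, 0.00857), apoE3 replicate 3 (0.67, 0.0419) or apoE3 replicate 4 (0.67, 0.0298). It was also called in the blocked fit of the 2 groups alone (0.67, edgeR adjusted p = 0.0102), without the libraries of number 4 (0.64, 0.0403) and by DESeq2 with the block (0.66, adjusted p = 0.0157). The other blocked fits that left out 1 library or the libraries of 1 number did not call the apoE4 value. Nor did the blocked fit with an offset for exon length.

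*Sorl1* (chr9:41964720-42124297, minus strand) had 239, 263, 413 and 139.7 CPM in control replicates 1 to 4, 223, 289.6, 574 and 187 with apoE2, 191, 289.8, 433 and 119.8 with apoE3 and 242, 384, 477 and 119 with apoE4. Replicate 3 was the highest and replicate 4 the lowest in every group. The log2 fold changes were 0.27 ± 0.49, -0.03 ± 0.49 and 0.21 ± 0.49 with apoE2, apoE3 and apoE4, and 0.24, -0.09 and 0.15 with the block, with a standard error of 0.13 and edgeR adjusted p of 0.465, 0.713 and 0.620. The single overlap with another exon on this locus is an antisense transcript over 1.63% of the *Sorl1* exons, and strand use in the counting is not stated.

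**Figure D3:**
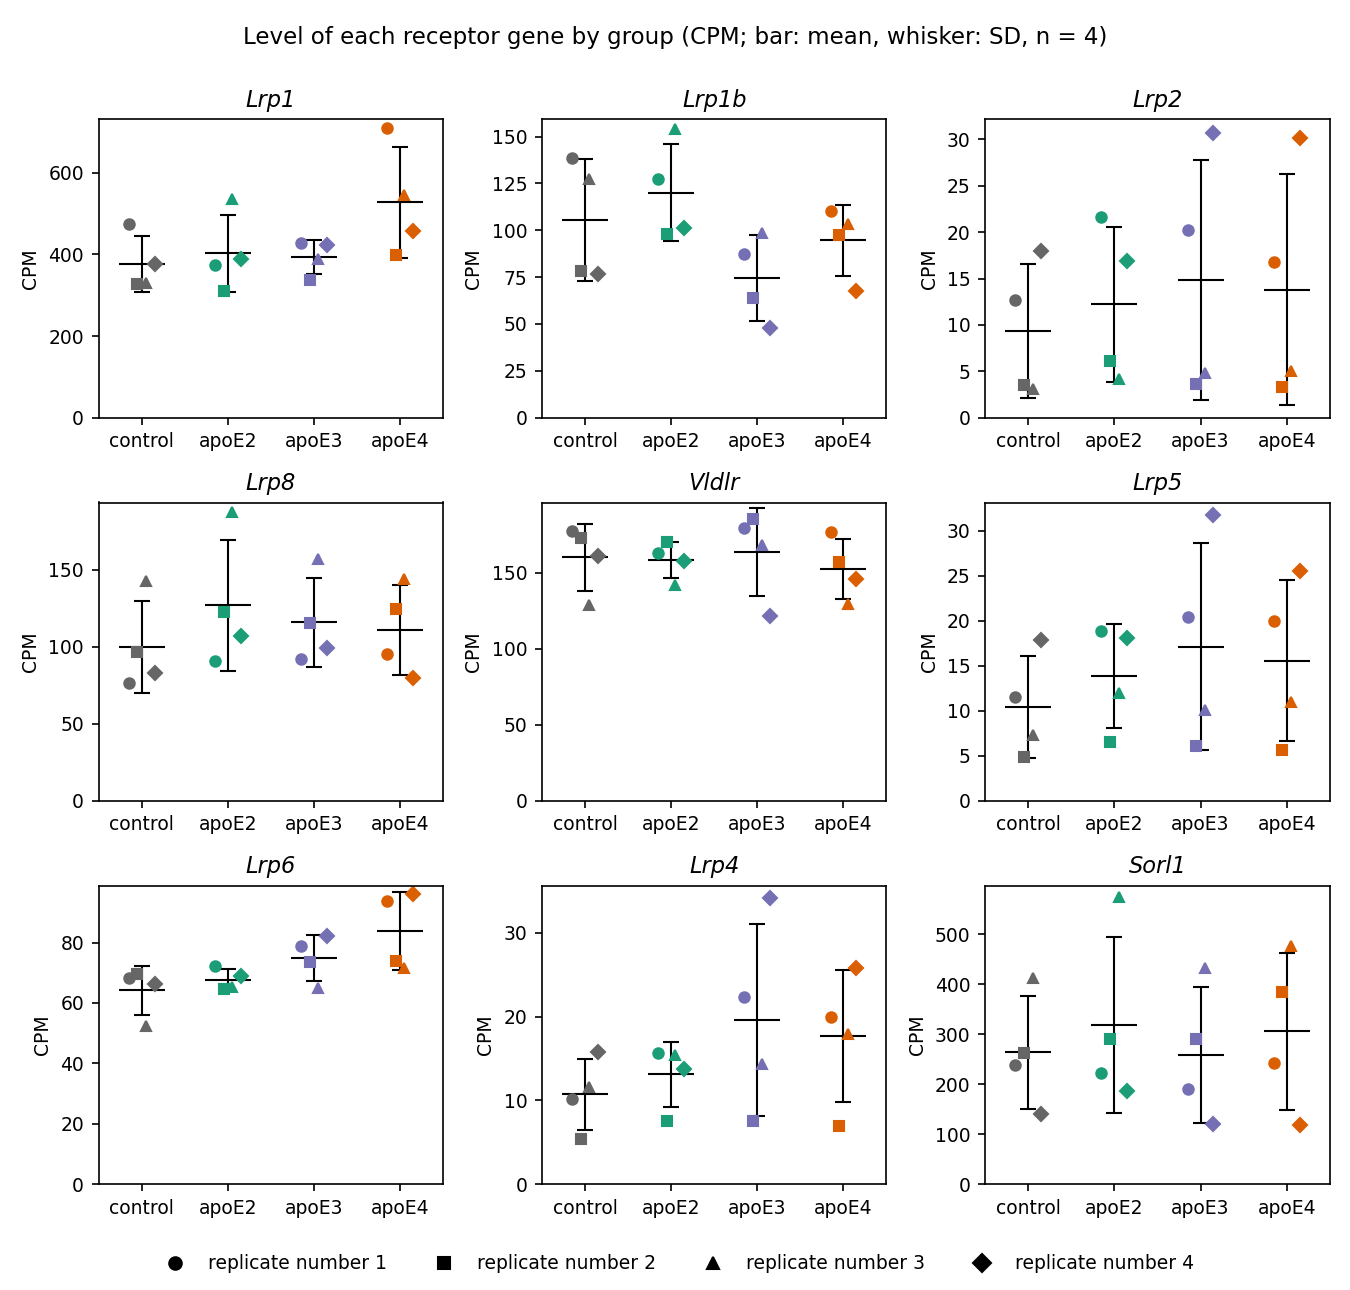
Level (CPM) of each of the 9 receptor genes in the 4 libraries of each group, with the group mean as a bar, the SD as a whisker (n = 4) and the replicate number as symbol. *Lrp6* is the 1 receptor of 9 with no overlap between apoE4 and control (1.91% of all genes). *Sorl1* has numbers 3, 2, 1 and 4 from high to low in every group, and *Lrp2* has numbers 1 and 4 above 2 and 3.

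Compared directly between isoforms, *Lrp1b* was lower with apoE3 than with apoE2, at 74.4 ± 23.0 against 120.1 ± 26.0 CPM. The log2 difference was -0.69 ± 0.26 with an unadjusted p of 0.0171 and an adjusted p of 1.0 by edgeR. With the block it was -0.72 ± 0.11 (edgeR adjusted p = 0.00786), 1 of 9 receptors called where 1.31% of all genes were. It was lower in 4 of 4 pairs, and the call held in 16 of 16 blocked fits that left out 1 library. It did not hold in the blocked fit of the 2 groups alone (-0.72, edgeR adjusted p = 0.0672), nor without the libraries of number 3 (-0.75, 0.0660) or number 4 (-0.60, 0.0503). *Lrp6* was higher with apoE4 than with apoE2, at 83.8 ± 12.8 against 67.7 ± 3.61 CPM, by a log2 difference of 0.31 ± 0.12 (unadjusted p = 0.0222, adjusted p = 0.704 by edgeR). With the block this was 0.30 ± 0.08 (edgeR adjusted p = 0.0458), again 1 of 9 beside 4.44% of all genes, and the call held in 5 of 16 blocked fits that left out 1 library, those without control replicate 2 or 3, apoE2 replicate 3, apoE3 replicate 4 or apoE4 replicate 2. It was lost in the blocked fit of the 2 groups alone (0.30, edgeR adjusted p = 0.154), with an offset for exon length (0.21, 0.114) and without the libraries of number 1, 2, 3 or 4 (edgeR adjusted p = 0.213, 0.0658, 0.102 and 0.208). In 2 blocked fits that left out 1 library another receptor was called between isoforms, *Lrp1* for apoE4 against apoE2 without apoE2 replicate 3 (0.55, edgeR adjusted p = 0.0236) and *Lrp1b* for apoE4 against apoE2 without apoE4 replicate 2 (-0.46, edgeR adjusted p = 0.0217). For apoE4 against apoE3 0 of 9 were called with the block, where 1.76% of all genes were. Of these 9, 2 had an unadjusted p under 0.05 (16.3% of all genes), *Lrp1* and *Lrp1b*, and DESeq2 with the block called 0 (4.56% of all genes).

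Over all 4 groups at once, edgeR's F test called 0 of 9 receptors without the block and 4 with it (*Lrp1b*, *Lrp4*, *Lrp5* and *Lrp6*, edgeR adjusted p = 0.00505, 0.0343, 0.0414 and 0.0204), where 0.229% and 10.7% of all genes were called. Without the block 1 of 9, *Lrp6*, had an unadjusted p under 0.05 (4.84% of all genes) and DESeq2 called 0 (1.34% of all genes). The replicate number itself was called for 9 of 9 receptors, beside 63.8% of all genes, and for 7 to 9 of them when 1 library was left out.

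The replicate number held most of the spread of several receptors. It took 92.1% of the sum of squares of log2 CPM for *Lrp2*, 91.0% for *Sorl1*, 87.3% for *Lrp5*, 82.5% for *Lrp8* and 72.4% for *Lrp4*, against a median of 56.1% over all tested genes. The group took 3.05% for *Lrp2* and 3.27% for *Sorl1*, and more for *Lrp6* (49.4%), *Lrp1b* (37.2%) and *Lrp1* (35.5%), against a median of 14.4%. The number with the highest mean level exceeded the one with the lowest 5.76-fold for *Lrp2* (number 4 over 2), 4.02-fold for *Lrp5* (4 over 2), 3.36-fold for *Sorl1* (3 over 4), 3.27-fold for *Lrp4* (4 over 2) and 1.78-fold for *Lrp8* (3 over 1). For *Lrp6* and *Vldlr* it was 1.23-fold. Depth differed with the number too, with a median of 15852618 gene counts for number 1 and 27507186 for number 3, and reads assigned to *Lars2* made up a median of 12.35% of gene counts in number 1 and 3.75% in number 2. Whether these had a part in the receptors' levels was not tested.

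**Figure D4:**
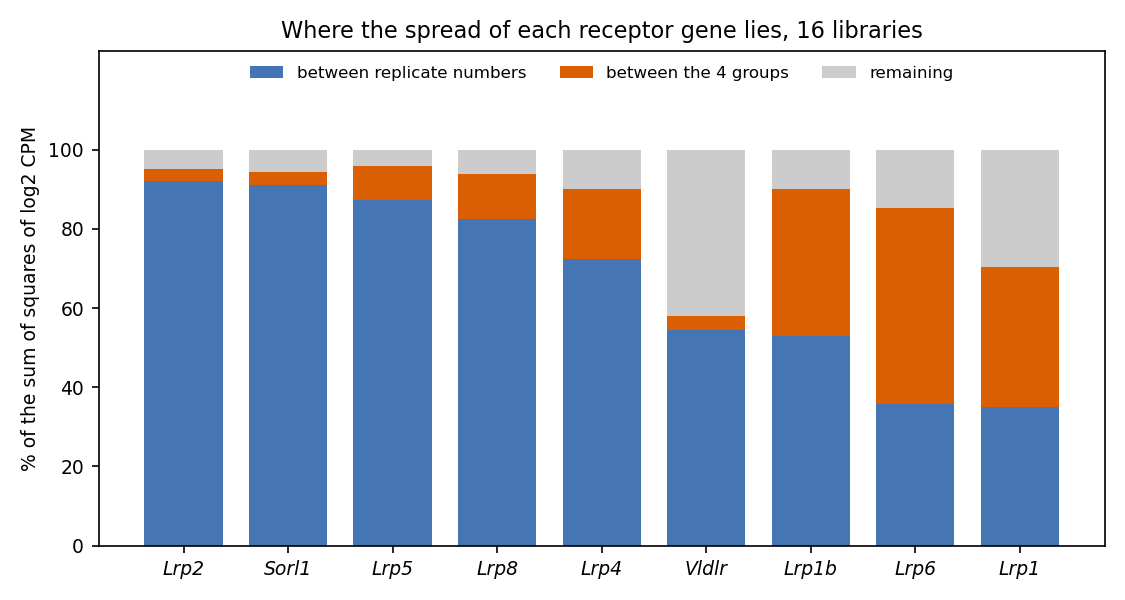
Share of the sum of squares of log2 CPM over 16 libraries that lies between replicate numbers (blue), between the 4 groups (orange) and in the remainder (gray) for each receptor gene, ordered by the first share. It falls from 92.1% for *Lrp2* to 35.0% for *Lrp1*, and the largest group share is that of *Lrp6* at 49.4%.

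Within the family, *Lrp4* and *Lrp5* were the most alike over the 16 libraries (Pearson r = 0.927, Spearman rho = 0.909), also after the mean of each replicate number was taken off (r = 0.938). *Lrp2* went with *Lrp5* (r = 0.922) and *Lrp8* with *Sorl1* (r = 0.850), while *Lrp2* and *Sorl1* ran against each other (r = -0.855). With the number means taken off these were 0.816, 0.570 and -0.467, so the last 2 rested more on the differences between numbers. These r are descriptions over libraries whose same-numbered members resemble each other. *Lrp1* and *Lrp6* were more alike within numbers (r = 0.752) than across them (r = 0.547).

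Astrocyte markers moved with some of these receptors. Their sum ran from 1410 to 3100 CPM in control neurons, 1300 to 3110 with apoE2, 1690 to 6490 with apoE3 and 1560 to 5270 with apoE4, and none of the 8 was at 0 in any library. In edgeR without the block 0 of the 8 were called with any isoform, 0 of 8 had an unadjusted p under 0.05 with each, and DESeq2 without the block called 0. With the block 7 of 8 were called higher with apoE3, among them *Gfap* by 1.40 ± 0.19 on the log2 scale (edgeR adjusted p = 0.000543). The count was 3 of 8 with apoE4 and 0 of 8 with apoE2. Over all genes 11.7%, 3.3% and 1.73% were called with apoE3, apoE4 and apoE2. With apoE2 7 of the 8 markers were higher and 1 lower, and 4 had an unadjusted p under 0.05 in either direction (13.3% of all genes). DESeq2 with the block called 2 with apoE2 (4.61% of all genes). With apoE3 the blocked fit also called the neuron markers *Gad1* (-0.69) and *Snap25* (-0.35) lower and *Tubb3* (0.35) higher on the log2 scale, 3 of 8 oligodendrocyte lineage markers higher (*Cspg4*, *Olig1* and *Olig2*, 0.63 to 1.00) and *Top2a* of 4 markers of dividing cells higher (2.58). It called *Flt1* of 2 tested endothelial markers (1.15), *Col1a2* of 7 mural and fibroblast markers (0.71) and *Foxj1* (0.65) and *Folr1* (0.63) of 5 choroid plexus and ependymal markers higher as well. With apoE2 it called *Top2a* (1.84), and with apoE4 *Cspg4* (0.84), *Flt1* (1.40) and *Col1a2* (0.85) higher beside the 3 astrocyte markers. Across libraries *Lrp4* followed the astrocyte sum with r = 0.982 and *Lrp5* with r = 0.902, or 0.939 and 0.847 after the mean of each number was taken off. On that second scale *Lrp6* had r = 0.753 and *Lrp1b* r = -0.815, while *Lrp1b* had r = 0.840 and *Sorl1* r = 0.758 with the sum of the 8 neuron markers. Other sums were about as close on that scale. *Lrp4* had r = 0.908 with the choroid plexus and ependymal sum and 0.905 with the low endothelial sum (0.966 to 3.87 CPM). *Lrp6* had r = 0.723 with the endothelial and 0.706 with the mural and fibroblast sum. *Lrp1b* had r = -0.759 with the mural and fibroblast and -0.747 with the choroid plexus and ependymal sum. *Lrp2* followed the sum of the 7 mural and fibroblast markers (r = 0.974), which ran from 22.3 CPM to 306 CPM, but the neuron sum (r = -0.937) and the oligodendrocyte lineage sum (r = 0.914) were about as close, and with the number means taken off the mural r was 0.681 and the oligodendrocyte lineage r 0.790. *Lrp5* followed several sums about as closely as that of astrocytes, with r = 0.953 for 5 choroid plexus and ependymal markers (28.1 to 358 CPM), 0.943 for 8 oligodendrocyte lineage markers (107 to 846 CPM) and 0.919 for the mural and fibroblast markers. The part of these cells in the changes of *Lrp4*, *Lrp5*, *Lrp6* and *Lrp1b* was not tested.

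**Figure D5:**
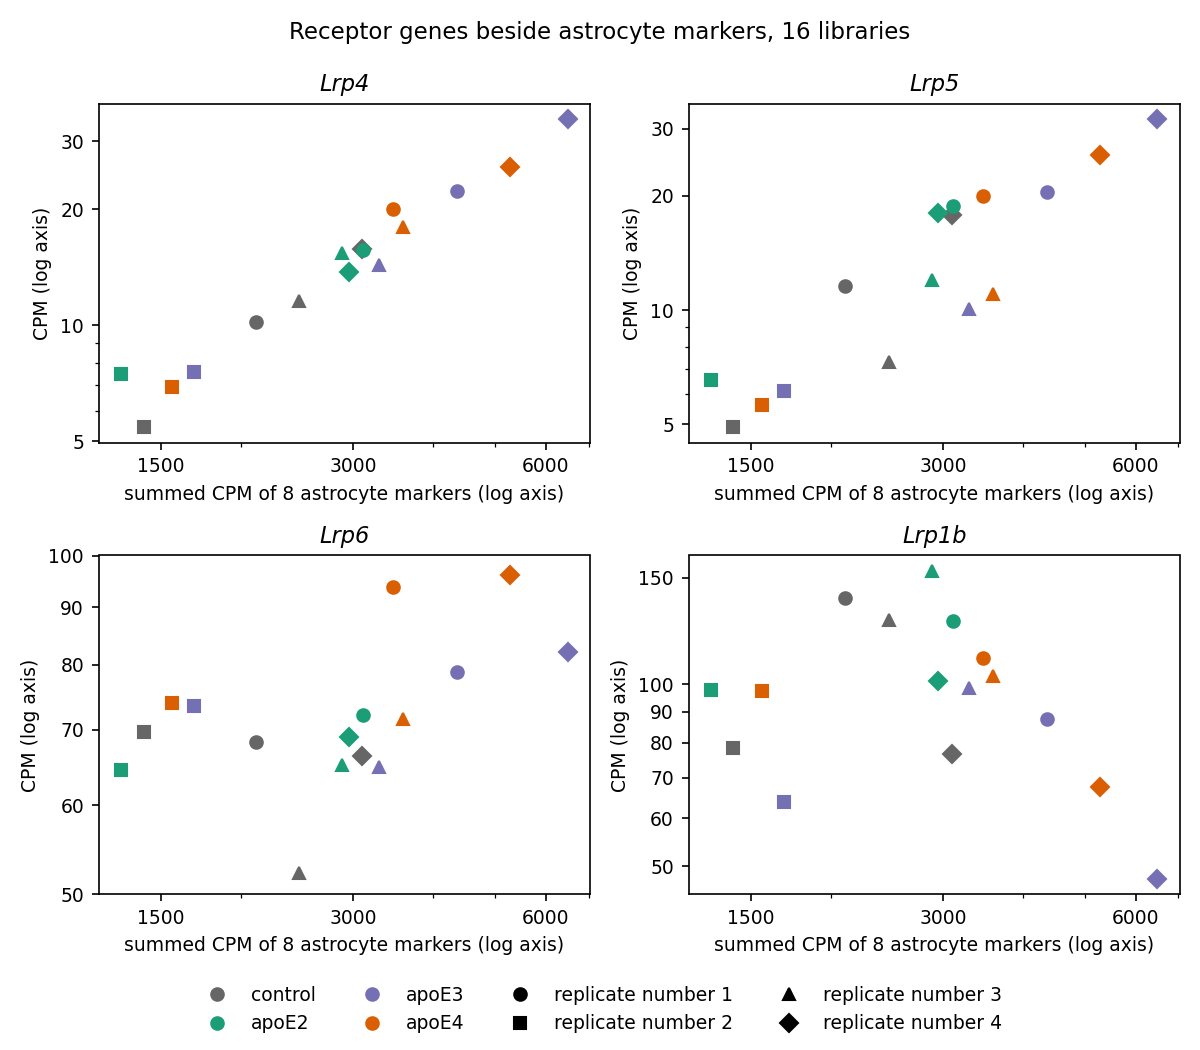
Level of *Lrp4*, *Lrp5*, *Lrp6* and *Lrp1b* (CPM, log axis) against the summed CPM of 8 astrocyte markers (log axis) in the 16 libraries, with the group as color and the replicate number as symbol. *Lrp4* and *Lrp5* rise along the marker sum (r = 0.982 and 0.902), and apoE3 replicate 4 lies at the right end with the highest *Lrp4* and *Lrp5* and the lowest *Lrp1b*.

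The genes that work with these receptors gave no call in edgeR without the block, with 0 called against control in each of the lists that follow and 0 to 2 genes of a list at an unadjusted p under 0.05. DESeq2 without the block called 1 of them, *Ldlrad4*, with apoE2 and apoE3. In the blocked edgeR fit 1.73%, 11.7% and 3.3% of all genes were called with apoE2, apoE3 and apoE4. Counts with apoE3 of 1 in 9 adaptors and chaperones, 1 in 10 reelin pathway genes and 2 in 14 Wnt regulators were near that share. Of 6 further genes with the family's binding repeats, the blocked edgeR fit called *Ldlrad4* with apoE2 (log2 fold change 1.05 ± 0.13, adjusted p = 0.00194) and apoE3 (0.68 ± 0.13, adjusted p = 0.00552) and *Lrp10* with apoE3 (0.38 ± 0.11, adjusted p = 0.0325). *Ldlrad4* went from 10.3 ± 2.66 CPM in control neurons to 21.2 ± 1.36 with apoE2, but its exons overlap those of *Fam210a* on the other strand, and the 2 cannot be told apart without strand. Among 9 tested chaperones, adaptors and turnover factors, *Dab2*, an endocytic adaptor that also binds megalin, was called higher with apoE3 (1.09 ± 0.19, edgeR adjusted p = 0.00312 with the block). The receptor chaperone *Lrpap1* was not called, at 195 ± 31.6, 228 ± 13.6, 216 ± 24.2 and 184 ± 39.8 CPM in the control, apoE2, apoE3 and apoE4 groups.

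Of 10 reelin pathway genes, *Reln*, the ligand of *Lrp8* and *Vldlr*, was called lower with apoE3 (-0.49 ± 0.10, edgeR adjusted p = 0.00735 with the block), at 71.9 ± 15.3 against 104 ± 35.3 CPM, and *Rapgef1*, an exchange factor downstream of Dab1, higher with apoE4 (0.45 ± 0.09, edgeR adjusted p = 0.0142 with the block). *Dab1* was at 79.7 ± 7.83 CPM in control neurons and 74.7 to 77.2 CPM on average with the isoforms, and was not called. In the agrin receptor complex 0 of 4 tested genes were called by the blocked fit with any isoform, 0 had an unadjusted p under 0.05, and DESeq2 with the block called 0. Of 14 tested Wnt co-receptor regulators, the blocked fit called *Sostdc1*, an antagonist of *Lrp5* and *Lrp6*, with apoE2 (1.84 ± 0.34, edgeR adjusted p = 0.0135), and *Dkk3* (0.73 ± 0.19, 0.0209) and *Lgr4* (0.28 ± 0.08, 0.0276) with apoE3. *Sostdc1* was low, at 1.53 ± 0.457 against 0.429 ± 0.138 CPM.

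Among 12 VPS10 receptors and retromer genes, *Sorcs3*, a relative of *Sorl1*, was called lower with apoE2 (-1.33 ± 0.23, edgeR adjusted p = 0.0118 with the block) and apoE3 (-1.15 ± 0.24, edgeR adjusted p = 0.00684 with the block), and no retromer gene was called against control. Of 12 genes for ligands, the blocked edgeR fit called 1 with apoE2, 5 with apoE3 and 2 with apoE4, beside 1.73%, 11.7% and 3.3% of all genes. Complement *C3* was higher with all 3 isoforms (0.87 ± 0.21, 1.09 ± 0.21 and 1.09 ± 0.21, edgeR adjusted p = 0.0487, 0.00449 and 0.00819). *Clu*, the apolipoprotein clusterin, was higher with apoE3 (0.79 ± 0.16, edgeR adjusted p = 0.00591) and apoE4 (0.64 ± 0.16, edgeR adjusted p = 0.0381). *A2m*, a protease inhibitor cleared by *Lrp1*, was higher with apoE3 (1.20 ± 0.22, edgeR adjusted p = 0.00383), as was *Thbs1* (0.92 ± 0.24, edgeR adjusted p = 0.0242), while *Lpl*, lipoprotein lipase, was lower (-0.78 ± 0.21, edgeR adjusted p = 0.0303). *C3*, *Clu* and *A2m* are also made by astrocytes, of whose 8 markers 0, 7 and 3 were called with apoE2, apoE3 and apoE4 in the same fit. Whether astrocytes had a part in the changes of these ligands was not tested. Mouse *Apoe* in the cultures, which could come from any of their cells, had 952 ± 576, 1070 ± 584, 1280 ± 846 and 1290 ± 760 CPM in the 4 groups and was not called. Of 8 shedding proteases only *Mmp14* was called, with apoE3 (0.70 ± 0.19, edgeR adjusted p = 0.0316 with the block). Of 4 other receptors that bind apoE, 0 were called with the block, 1 had an unadjusted p under 0.05, with apoE3, and DESeq2 with the block called 0. Of the 3 megalin partners 1, *Dab2*, was called as given above.

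The genes most like each receptor over the 16 libraries, by Pearson r of log2 CPM, were *Atp1b2* (0.943) and *Wnk1* (0.922) for *Lrp1*, *Kcnj4* (0.895) and *Son* (0.886) for *Lrp1b*, and *Pdgfrb* and *Apeh* (both 0.980) for *Lrp2*. For the reelin receptors they were *Map3k9* (0.946) and *Tbc1d13* (0.942) for *Lrp8* and *Dclk2* (0.852) and *Ssbp4* (0.850) for *Vldlr*. The Wnt co-receptors had *Sorbs3* (0.996) and *Afap1l2* (0.993) for *Lrp5* and *Rapgef1* (0.921) and *Ikzf2* (0.916) for *Lrp6*. *Lrp4* had *Plekhh2* (0.984) and *Lcat* (0.978), and *Sorl1* had *Nrcam* (0.976) and *Atrn* (0.974). Once the mean of each number was taken off, the leading gene was *Arid1a* for *Lrp1* (0.967), *Cacna1h* for *Lrp1b* (0.946), *Hepacam* for *Lrp2* (0.940), *Pard3b* for *Lrp4* (0.978), *Slc7a2* for *Lrp5* (0.971), *Igf1r* for *Lrp6* (0.961), *Rhbdd2* for *Lrp8* (0.920), *Tbc1d30* for *Vldlr* (0.908) and *Hivep2* for *Sorl1* (0.945). The leading gene of *Vldlr* was the least alike on the first scale, at 0.852. These values describe the same 16 libraries, and the genes were the closest of 17038 tested.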

How the data were processed

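The authors depleted ribosomal RNA, sequenced TruSeq libraries, aligned the reads to mm10 with STAR and counted them per gene with HTSeq, and the deposited values are raw counts per gene symbol. The annotation and the use of strand are not given in the sources used here. HTSeq's own totals (5 lines of each file), 38.4 to 73.7% of a library, were left out. Groups and replicate numbers are those of the sample labels. The counts were scaled by TMM and filtered with filterByExpr (minimum count 10, total 15, proportion 0.7), and tested with the quasi-likelihood test of edgeR 4.0.16 in R 4.3.3 over all 16 libraries, with Benjamini-Hochberg adjustment. The fits were tested on simulated data. Log2 CPM used a prior count of 2. Alternatives were DESeq2 1.42.0 and its size factors, other filters, an offset for exon length, the 2 groups alone, the test of the study's methods, each library left out, and the replicate block. Gene positions are from GENCODE M21, which held 95.9% of the symbols.

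Whether same-numbered libraries share a culture is not in the labels. The pairing was read from the data. Deviations from the group means correlated across groups at 0.362 to 0.552 among libraries numbered 1, 0.766 to 0.831 among those numbered 2, 0.620 to 0.671 among those numbered 3 and 0.681 to 0.790 among those numbered 4, and at -0.736 to 0.569 where numbers differed. The common dispersion of edgeR was 0.132 without the block and 0.0178 with it. The study describes independent neuronal cultures; which libraries share one is not stated, so that p-values measure the spread between these libraries. Members, gene lists and tests were chosen with earlier results of these data known. All 9 receptors are named. From each list of partner genes those called against control by either fit are named, at most 4 by smallest p, and *Lpl*, the fifth of its list, was added after its values were seen. One result of these lists is not reported here. For each receptor the 2 most correlated genes on either scale were to be named; on the second scale the first is given. *Dab1*, *Lrpap1* and *Apoe* were named for their role.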

Additional observations from a re-analysis of the deposited data

Results flagged for a closer look

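Both flagged results are differences between 2 isoforms that the blocked edgeR fit called on the difference itself. *Lrp1b* was lower with apoE3 than with apoE2 by a log2 difference of -0.72 (edgeR adjusted p = 0.00786 with the replicate block, 1.0 without it), in 4 of 4 pairs. *Lrp6* was higher with apoE4 than with apoE2 by 0.30 (edgeR adjusted p = 0.0458 with the replicate block, 0.704 without it), in 4 of 4 pairs. Within groups, no library stood far from the other 3 by Dixon's test for any of the 9 receptors (0 of 36 groups, where chance gives about 1 in 20).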

How the results depend on the processing

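The replicate block moved more calls than any other choice. Against 0 receptors called in each comparison of the reported edgeR fit, the number called with the block was 3 with apoE3 and 1 with apoE4 against control, 1 for apoE3 and 1 for apoE4 against apoE2, and 4 among the 4 groups. With the block and an offset for exon length these were 4, 1, 1, 1 and 4 (12%, 3.12%, 1.47%, 4.76% and 11% of all genes), where the 1 for apoE4 against apoE2 was *Lrp1b* (-0.45, edgeR adjusted p = 0.0141) in place of *Lrp6*. In DESeq2 with the block they were 3, 4, 1, 1 and 6 (16.5%, 5.61%, 4.99%, 8.07% and 18.9% of all genes), plus 1 with apoE2 (4.61%). Blocked fits of the 2 groups alone called 4 with apoE3 and 4 with apoE4 (9.89% and 5.90% of all genes). These alternatives, other than the block and the offset, were chosen after seeing the data, as were the blocked fits of 12 libraries. Without the libraries of number 1 those called 1 receptor for apoE3 against apoE2 and 1 among the 4 groups (0.189% and 2.71% of all genes). Without number 2 they called 4 with apoE3, 1 with apoE4, 1 for apoE3 against apoE2 and 2 among the groups (11.3%, 2.40%, 0.259% and 8.13%). Without number 3 they called 2 with apoE3 and 1 among the groups (4.62% and 2.88%), and without number 4, 1, 3 and 2 with apoE2, apoE3 and apoE4 and 3 among the groups (4.14%, 8.54%, 3.04% and 8.39%). At the study's criterion the count with apoE3 ran from 0 to 1 as single libraries were left out, with 1 without control replicate 4 or apoE3 replicate 2. In no comparison did another fit without a block change the number called.

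The sign of small values turned with single libraries. As each library was left out, the log2 fold change with apoE2 ran from -0.09 to 0.22 for *Lrp1*, -0.03 to 0.92 for *Lrp2*, -0.0084 to 0.12 for *Lrp6*, -0.11 to 0.03 for *Vldlr* and -0.19 to 0.57 for *Sorl1*. With apoE3 it ran from -0.06 to 0.15 for *Vldlr* and -0.40 to 0.27 for *Sorl1*, and with apoE4 from -0.17 to 1.1 for *Lrp2*, -0.16 to 0.0009 for *Vldlr* and -0.09 to 0.51 for *Sorl1*. In blocked fits of 12 libraries the sign turned for *Lrp1* with apoE2 (-0.12 without number 3), *Vldlr* with apoE2 (0.03 without number 1) and with apoE3 (-0.01 without number 2 and -0.09 without number 3), and *Sorl1* with apoE4 (-0.02 without number 2). The cause was not tested. Of the values of single receptors, 833 kept their sign and side of the threshold, 45 passed it and 21 turned.

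*Lrp2* had the fewest reads, 88 to 664 a library, so counting error matters most there.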
